A study of Homo sapiens with 2 samples.

Results

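The fibroblast growth factor (FGF) receptor and ligand genes examined here are FGFR1, FGFR2, FGFR3, FGFR4, FGF1, FGF2, FGF5, FGF7 and FGF18, with FRS2, the adaptor that couples the receptors to the RAS pathway. A gene counted as measured where at least 1 probe set of the deposited table carried its symbol and no other. By that rule 7 of the 10 genes were measured, out of 14232 named genes in all. FGF2 and FGF7 had only probe sets shared with other genes, and no probe set carried the FRS2 symbol in the annotation used. The samples are J82 cells, an established human bladder cancer line, grown in serum-containing medium without treatment and sorted after staining with the DNA dye Hoechst. The side population (SP) keeps little dye and the non-side population (NSP) is the rest. Total RNA of each was hybridised to 1 whole-transcript human exon array, from 250 ng of input. Neither population has a replicate, so each difference below compares 2 arrays, has no error between samples and no test, and says nothing certain about the populations themselves.

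FGF receptors are receptor tyrosine kinases. A ligand and a heparan sulphate chain join receptors into pairs, which phosphorylate FRS2 and so switch on the RAS-ERK and phosphoinositide kinase pathways. ERK signalling then induces transcription factors and also inhibitors that dampen the same pathway. In the urothelium, the lining of the bladder, FGFR3 is the family member best known for activating mutations in cancer. Alternative splicing of the extracellular part of FGFR1, FGFR2 and FGFR3 sets which ligands bind, and a single value per gene does not separate such forms.

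The 2 brighter receptor genes, FGFR1 and FGFR3, had lower values in SP by similar margins, and the ligand gene FGF1 had a wider gap at a dimmer signal. FGFR1 was 1.35-fold lower and FGFR3 1.34-fold lower. The FGF1 values differed by 1.52-fold in the same direction, but both lay under the level taken as the lower limit of usable signal, so that fold is uncertain. FGF18, FGFR2 and FGFR4 differed by 1.06-fold or less and FGF5 by 1.14-fold. Values are deposited log2 signals, and differences are SP minus NSP on that scale. The median of all values in the table, 7.44, is called the floor. A gene whose higher value reached it is called an above-floor gene, and only such genes were counted for a fold threshold. Of the 7 measured genes 3 reached the floor (FGFR1, FGFR3 and FGF18), all 3 with a lower value in SP, as had 59.6% of all above-floor genes. The FGFR1 and FGFR3 differences lay inside the central 95% of those of genes with a similar signal.

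The promoter sequences of 3 genes are shown because they stand for the outcomes among the members: FGFR3 and FGF1, both lower in SP, and FGF18, which barely differed. Each is the 250 bases before the start that NCBI RefSeq gives on GRCh38.p14, written 5′ to 3′ on the gene's strand. Capitals mark matches, on either strand, to the GC box GGGCGG bound by Sp1 and Kruppel-like factors, the AP-1 site TGACTCA, the TEAD site GGAATG and the EGR site GCGGGGGCG. The FGFR3 window lies at chr4:1793043-1793292 on the plus strand, FGF1 at chr5:142644240-142644489 on the minus strand and FGF18 at chr5:171419397-171419646 on the plus strand.
FGFR3: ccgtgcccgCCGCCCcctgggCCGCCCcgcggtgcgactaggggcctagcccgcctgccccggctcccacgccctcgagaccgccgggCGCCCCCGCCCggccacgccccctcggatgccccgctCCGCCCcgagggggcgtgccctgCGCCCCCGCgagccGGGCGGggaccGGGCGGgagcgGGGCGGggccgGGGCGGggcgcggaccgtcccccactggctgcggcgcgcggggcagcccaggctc
FGF1: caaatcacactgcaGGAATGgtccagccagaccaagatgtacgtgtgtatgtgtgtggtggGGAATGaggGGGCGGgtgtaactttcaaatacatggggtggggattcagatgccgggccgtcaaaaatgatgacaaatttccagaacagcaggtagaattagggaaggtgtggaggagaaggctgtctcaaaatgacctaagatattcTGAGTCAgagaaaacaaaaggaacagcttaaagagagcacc
FGF18: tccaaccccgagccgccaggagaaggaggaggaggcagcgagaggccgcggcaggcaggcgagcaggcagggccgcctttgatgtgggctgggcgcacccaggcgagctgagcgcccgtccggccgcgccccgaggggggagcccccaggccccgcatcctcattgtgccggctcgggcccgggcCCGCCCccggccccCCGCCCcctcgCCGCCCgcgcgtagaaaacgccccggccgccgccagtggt

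The windows were unlike in composition. That of FGFR3 was 86.8% G and C and held 8 GC boxes and 2 EGR matches, of which 1 overlapped a GC box. The FGF18 window was 78.8% G and C with 3 GC boxes and no match to the other motifs. The FGF1 window was 47.2% G and C and held 1 GC box, 1 AP-1 match and 2 TEAD matches. It lies inside the annotated gene, since another FGF1 transcript starts further upstream, whereas the FGFR3 and FGF18 windows end at the gene's outer edge. Of 35116 windows of the same length, 42.6% held a GC box, 4.20% the AP-1 letters, 11.9% the TEAD letters and 4.72% the EGR letters, and their median content of G and C was 58.0%. A match is a string of letters and not a shown binding site, and the arrays do not measure binding. The FGFR1 window is not shown.

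Among the receptors, FGFR1, the form most widely expressed in mesenchymal cells, had a signal of 8.15 in SP and 8.58 in NSP, a difference of -0.43. Both values lay above the floor, and the SP array was the lower one. Of the 7549 above-floor genes, 349 (4.62%) had a difference as low or lower. Among the 500 genes closest to FGFR1 in mean signal 33 did (6.60%), and the central 95% of those neighbours ran from -0.52 to 0.57. The FGFR1 difference was thus inside the range that most genes of its brightness covered.

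FGFR3 had a signal of 7.73 in SP and 8.16 in NSP, a difference of -0.42. Its SP value was again the lower, and both were above the floor. Here 372 of the 7549 genes (4.93%) were as low or lower, and 30 of its 500 neighbours in signal (6.0%), whose central 95% ran from -0.52 to 0.48. Of 6 above-floor bladder epithelial markers, a group with which FGFR3 is often listed, 5 had the higher value in SP. Among all above-floor genes 59.6% had the lower value in SP. PPARG, a nuclear receptor of urothelial differentiation, had 9.20 in SP and 8.50 in NSP, and the keratin gene KRT8 had 13.18 and 12.77. KRT7 differed by only 0.02, and FOXA1, at -0.06, went the other way. The KRT8 difference of 0.42 was 0.055 with probe sets of several genes averaged in.

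The other receptors were dim. FGFR4 had 6.75 in SP and 6.81 in NSP, a difference of -0.06. FGFR2, the epithelial receptor for FGF7, had 5.13 and 5.05, a difference of 0.08 and the only measured member with the higher value in SP. Both genes lay under the floor on both arrays. At that level the array does not show whether a transcript is present, so the small differences do not show that the populations are alike for these receptors.

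FGF1, a ligand that binds every FGF receptor, had the largest difference of the set, -0.60, with 6.82 in SP and 7.42 in NSP. The NSP value missed the floor by 0.02, so FGF1 is not in the counts above the floor. As for the other members at such a level, the array does not show whether the transcript is present. Over all named genes 163 of 14232 (1.15%) were as low or lower. Among its 500 neighbours in signal 4 were (0.80%), and the central 95% of these ran from -0.44 to 0.44, so FGF1 lay below that range. Without any floor FGF1 was the 1 member of 7 that was at least 1.5-fold lower, where 1.23% of all genes were.

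FGF18, a ligand known from bone and lung development, had 7.90 in SP and 7.93 in NSP, a difference of -0.03. It was the member above the floor that differed least, and its difference was near the median of -0.05 for above-floor genes. FGF5, a regulator of the hair cycle, had 5.17 in SP and 5.36 in NSP, a difference of -0.19 with both values far under the floor. A second FGF5 probe set, shared with CFAP299, had 3.81 and 3.72, the opposite sign at an even lower signal.

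**Figure D1:**
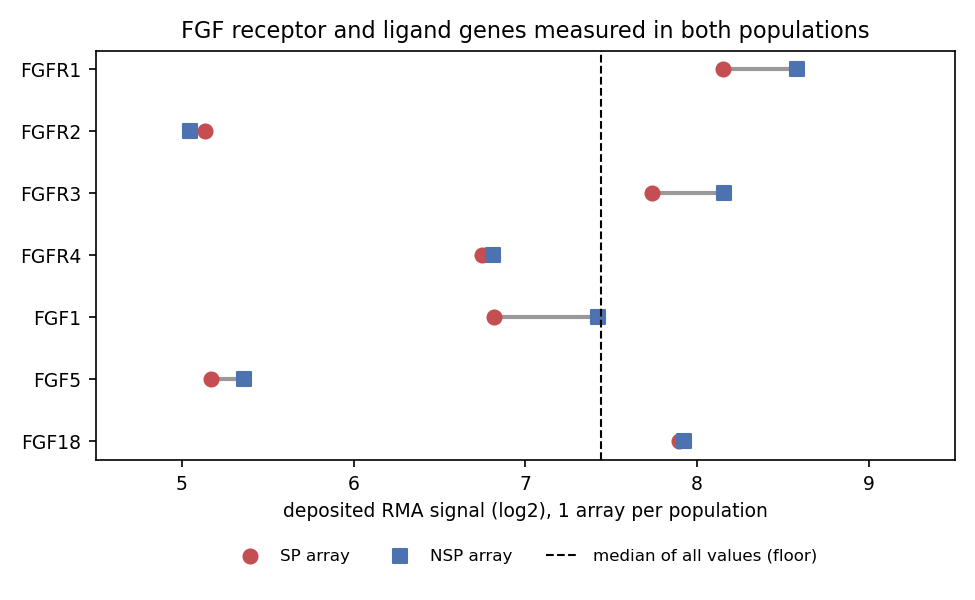
Deposited log2 signal of the 7 measured genes on the SP array (circles) and the NSP array (squares), with the floor of 7.44 dashed. FGFR1, FGFR3 and FGF1 have the widest gaps, each with the SP value on the left, and only FGFR1, FGFR3 and FGF18 lie beyond the floor.

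FGF2, FGF7 and FRS2 could not be assigned a value of their own. Of the 2 probe sets annotated with both FGF2 and NUDT6, a gene transcribed from the opposite strand that overlaps FGF2, 1 had 9.06 in SP and 8.89 in NSP and the other 6.16 and 6.18. The brighter signal was 1.13-fold higher in SP, the reverse of FGFR1, FGFR3 and FGF1, but the annotation does not say which of the genes it reports. The probe set shared by FGF7 and 2 of its pseudogenes, FGF7P6 and FGF7P3, had 3.46 and 3.43, near the low end of the table.

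At the 1.5-fold threshold none of the 3 above-floor members was counted in either direction. Among the 7549 above-floor genes, 3.10% passed it with the higher value in SP and 1.43% with the lower. At a looser threshold, a difference of 0.32, 2 of the 3 members were lower (FGFR1 and FGFR3) and none higher, against 10.7% of above-floor genes lower and 8.57% higher. A count over 3 genes cannot be set closely against such shares. Over the 7 measured members 6 had a lower value in SP, with a median difference of -0.19. Over all named genes 49.5% had a lower SP value and the median was 0.00, and among above-floor genes 59.6% did. The direction of each of the 7 members was kept under centring, quantile normalisation and removal of the trend on signal level. With the main values included, differences ran from -0.43 to -0.38 for FGFR1, from -0.42 to -0.39 for FGFR3 and from -0.62 to -0.59 for FGF1. Centring only added 0.01 to each difference. Each member has 1 probe set of its own, so the use of the brightest could not change a value. Averaging in probe sets of several genes changed only FGF5 of the 7. The FGF18 difference ran from -0.03 to -0.0004, which gives it no usable direction, although it counts among the members with a lower SP value. With probe sets of several genes averaged in, the median over the then 9 members was -0.051.

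**Figure D2:**
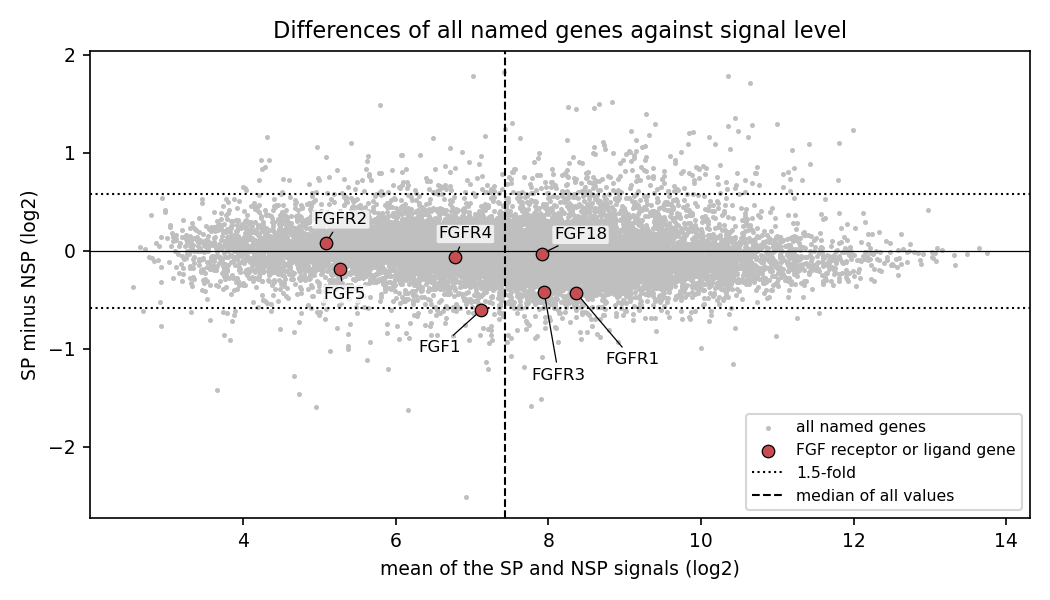
SP minus NSP (log2) against the mean of both signals (log2) for all 14232 named genes in grey and the 7 members in red, with 1.5-fold as dotted lines and the floor as a dashed line. FGF1 sits just past the lower dotted line and just left of the floor, and FGFR1 and FGFR3 lie inside the dotted lines at the lower side of the cloud.

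Other ligands of the family did not share a direction. Of 17 further FGF genes 14 were measured, 8 with a higher and 6 with a lower value in SP, and their differences ran from -0.24 to 0.27 around a median of 0.04. Only FGF11 and FGF22 reached the floor. FGF22, which organises synapses, had 8.03 in SP and 8.27 in NSP, and FGF11, an intracellular homologous factor that does not act through the receptors, had 8.18 and 8.25. The other 12, among them FGF3, FGF4, FGF8, FGF9, FGF10 and FGF19, lay under the floor on both arrays.

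Of the 6 genes for co-receptors and carriers only FGFRL1 reached the floor. FGFRL1, a receptor without a kinase domain that can hold back FGF signalling, had 9.04 on each. The klotho genes KL and KLB, co-receptors for the hormone-like FGFs, and the carriers FGFBP1, FGFBP2 and FGFBP3 were under the floor, with FGFBP2 at a difference of 0.21 and FGFBP1 at 0.17. Of 9 measured heparan sulphate proteoglycan genes 4 reached the floor and none of these passed 1.5-fold. The syndecan gene SDC2 had 9.30 in SP and 9.15 in NSP, SDC3 had 7.87 and 7.98, SDC4 had 10.18 and 10.17, and the glypican gene GPC2 had 7.73 and 7.62.

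Enzymes that build and edit heparan sulphate, which decide how well a chain binds FGFs, showed similarly small differences. Of 18 measured, 8 reached the floor, 3 with the higher and 5 with the lower value in SP, and none passed 1.5-fold. The chain polymerase gene EXT1 had 11.02 in SP and 10.82 in NSP, and its partner EXT2 had 9.37 and 9.54. The epimerase gene GLCE had a difference of 0.15 and the xylosyltransferase gene XYLT2 one of -0.15. The sulphotransferase gene HS3ST1, named after its values were seen, had the largest difference in the list, 0.63, with 6.57 in SP and 5.94 in NSP, both under the floor.

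Downstream of the receptors, adaptor genes fell on both sides of 0. All 12 measured adaptors reached the floor, 4 with the higher and 8 with the lower value in SP, and the median was -0.06. PIK3R1, a regulatory subunit of phosphoinositide kinase, had 8.73 in SP and 8.0 in NSP and was the 1 adaptor past 1.5-fold, at 1.67-fold higher, where 3.10% of above-floor genes were that much higher. The adaptor gene NCK1 was 1.37-fold higher. PTPN11, the phosphatase that FRS2 recruits, had 9.02 and 9.27, and GRB2, which links FRS2 to RAS activation, had 9.29 and 9.53. FRS3, the relative of FRS2 and named for that reason after its value was seen, had 7.36 and 7.48. The 5 measured genes of the RAS-ERK cascade had differences between -0.15 and 0.18: ARAF at -0.15, MAPK3 (ERK1) at -0.13, HRAS at -0.09 and RPS6KA3 at 0.18 among them.

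Feedback inhibitors and most targets of FGF-ERK signalling that reached the floor had the opposite direction to FGFR1, FGFR3 and FGF1. All 6 above-floor feedback genes were brighter on the SP array, where 59.6% of above-floor genes had the lower value. Of the 6, 2 passed 1.5-fold, against 3.10% of above-floor genes. DUSP5, a nuclear ERK phosphatase, had 11.09 in SP and 9.87 in NSP, a 2.33-fold difference. DUSP4, a related phosphatase, had 7.54 and 6.94, its NSP value under the floor. DUSP6, the cytoplasmic ERK phosphatase often read as a sign of FGF signalling and named after its value was seen, had 6.98 and 6.35, both under the floor. The inhibitors that act at the level of RAS and the receptor differed less: SPRED2 by 0.23, SPRY2 by 0.13, SPRY1 by 0.05 and SPRY4 by 0.04. The differences of SPRY1 and SPRY4 are too small to read as a direction. FLRT2, listed with the feedback genes but not a known inhibitor, and named after its value was seen, had 7.11 and 7.38, also under the floor. The largest differences in the list were those of DUSP5, DUSP6 and DUSP4, and of these only DUSP5 had both values above the floor.

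Among the 12 target genes, all measured, 10 reached the floor, 8 of them with the higher value in SP, and 5 passed 1.5-fold upwards. Among above-floor genes 3.10% did so, and 59.6% had the lower value in SP. EGR1, IER3 and MYC, which many stimuli besides FGF induce within an hour, had differences of 1.71, 0.84 and 0.85, and PHLDA1 one of 0.75. The ETS factor genes ETV4 and ETV5, transcribed in response to FGF in many tissues, did not go with them. ETV5 had 9.26 in SP and 9.34 in NSP, and ETV4, under the floor, had 7.10 and 7.15. ETV1 had 6.61 and 6.88 and the cyclin gene CCND1 9.83 and 10.05. The ETV genes and CCND1 were named here after their values were seen. The median over the 12 targets was 0.42, a figure that mixes the immediate early genes with the ETV genes.

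**Figure D3:**
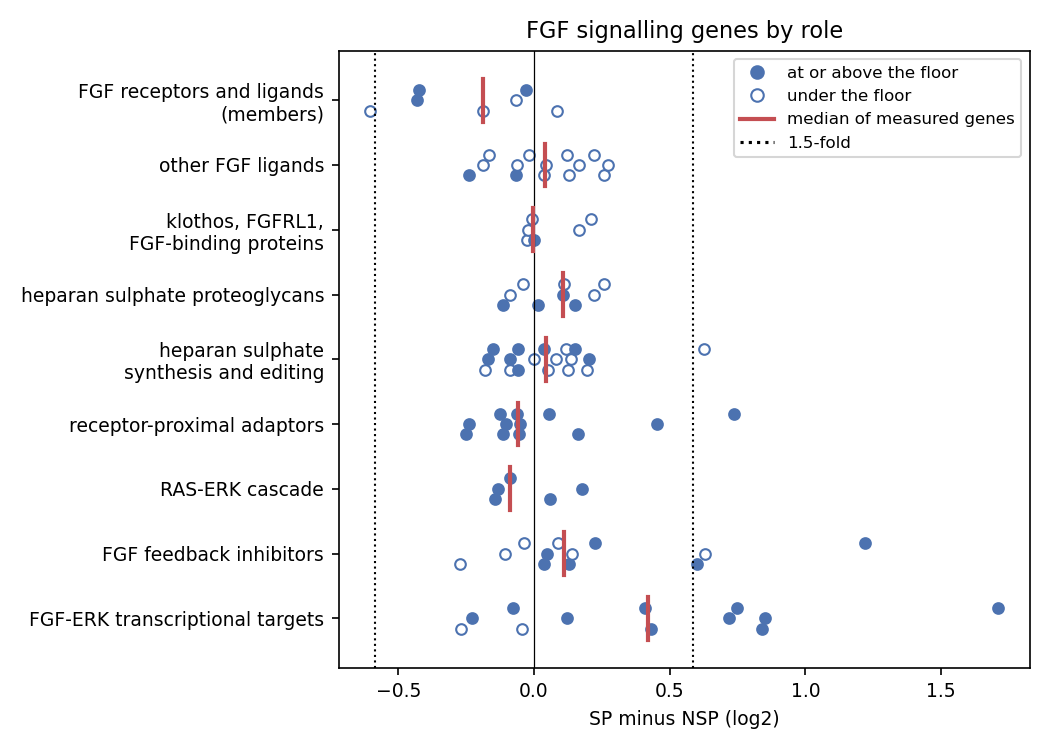
SP minus NSP (log2) of each measured gene by its role in FGF signalling, filled where its higher value reached the floor and open where it did not, with the list median in red and 1.5-fold dotted. The member genes lie mostly left of 0, while the feedback and target rows reach to the right, up to 1.22 for DUSP5 and 1.71 for EGR1.

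Set beside the other receptor tyrosine kinases, FGFR1 and FGFR3 were at the lower end, whereas FGFR2 and FGFR4 were under the floor and are not in the order. Of 13 above-floor receptor genes FGFR1 and FGFR3 had the lowest differences, followed by AXL at -0.36, IGF1R at -0.25 and INSR at -0.25. At the other end PDGFRB, the platelet-derived growth factor receptor of mesenchymal cells, had a difference of 0.54 (8.53 in SP and 7.99 in NSP) and ROR1 one of 0.47. None of the 13 passed 1.5-fold. FGFR1 and FGFR3 held the lowest 2 places under quantile normalisation and removal of a trend on signal level. Centring cannot change the order. The use of the brightest probe set could move only IGF1R, since each of the others has 1 probe set. With probe sets of several genes averaged in, however, DDR2 moved from 0.05 to -0.58, a lower difference than those of FGFR1 and FGFR3 in that setting. In the ERBB family EGFR had a difference of 0.14 and ERBB2 one of -0.21. The ERBB ligand gene NRG1 was 1.51-fold higher (7.84 in SP and 7.24 in NSP), with its NSP value under the floor. Of above-floor genes 3.10% were at least 1.5-fold higher. FGF1 had the opposite direction, with both values under the floor. With 1 array for each population, no difference between the families could be tested.

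**Figure D4:**
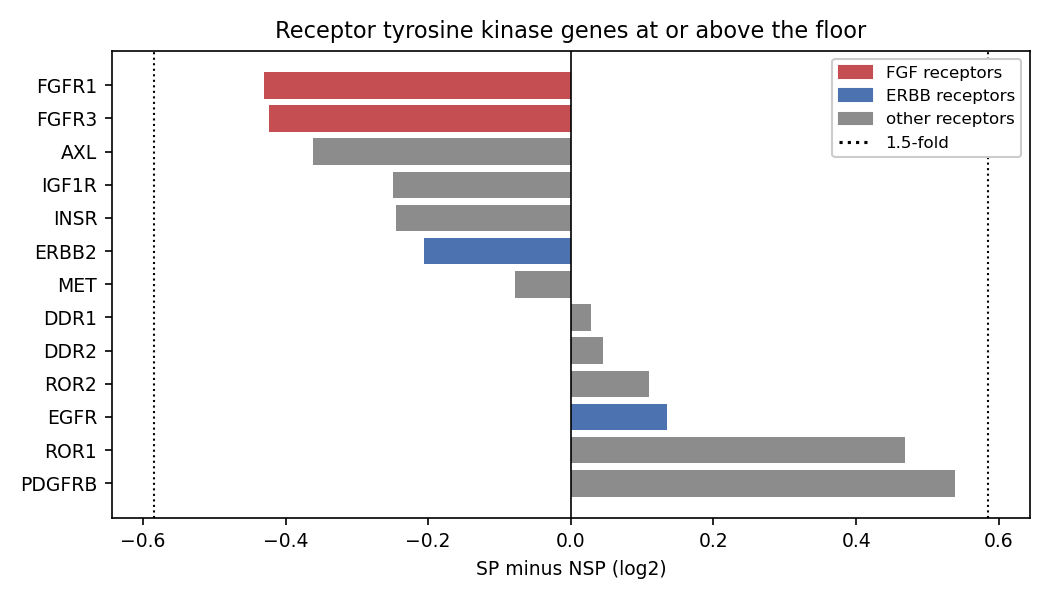
SP minus NSP (log2) of the 13 receptor tyrosine kinase genes whose higher value reached the floor, with FGF receptors in red, ERBB receptors in blue, other receptors in grey and 1.5-fold dotted. The FGF receptor bars are the longest to the left, at -0.43 and -0.42, and that of PDGFRB the longest to the right, at 0.54.

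The markers of the line were checked on both arrays. Of 13 bladder epithelial markers 6 reached the floor, with KRT18 at 10.57 in SP and 10.32 in NSP, but EPCAM had 4.42 on each and CDH1 and the uroplakin genes lay under it. The mesenchymal genes VIM and CDH2 had 10.12 and 9.86 in SP. None of 4 endothelial markers and 2 of 5 immune markers (CD14 and CD68) reached the floor, and PTPRC, which marks all white blood cells, had 3.74 and 3.80. Of 6 fibroblast and muscle markers 3 did: LUM (10.74 and 11.13), PDGFRB and DES. The part of these genes in the FGF differences was not tested. In RNA of a sorted population, fewer cells that express a gene and less RNA of it per cell cannot be told apart.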

How the data were processed

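Total RNA of 2 sorted populations of J82 cells, SP and NSP, was measured on 1 array each. The deposited values are log2 signals that the authors made with RMA and Partek, per the submitters' processing notes. The log2 scale was read from RMA and from the values, 2.11 to 13.99. Versions, filters and the array's genome build were not given in the sources used here. RMA draws dim differences towards 0, and the number of arrays limits the precision.

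Of 22011 probe sets 14432 had 1 gene symbol in the platform annotation, 2408 several and 5171 none. Symbols were updated by Entrez identifier through RefSeq (GRCh38.p14), which matched 14404, and probe sets of a gene were averaged. No test was run. Array medians were 7.43 (SP) and 7.44 (NSP). The members and the 16 other lists were chosen with earlier results of these data known. Each list gave up to 4 named genes, those at or above the floor with the largest absolute difference. Cell type markers and some further list members were named after their values were seen. The 500 neighbours in signal were added after the values were known. Alternatives changed the scaling, the trend on signal level (lowess, span 0.3), the floor, the threshold and the probe sets used. The calculation was tested on data with known answers. Python 3.11.15, numpy 2.4.6, pandas 2.3.3, statsmodels 0.14.6 and matplotlib 3.10.9 were used.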

Additional observations from a re-analysis of the deposited data

How the results depend on the processing

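No paired analysis was possible because each population has 1 array, and for the same reason no replicate could be left out. The number of members at least 1.5-fold lower in SP was 0 of 3. It was 1 of 7 without a floor and 1 of 5 with the floor at the lower quartile of all values, 6.09, the gene being FGF1 in each case. At the looser threshold of 0.32 it was 2 of 3 (FGFR1 and FGFR3). Over all named genes the same count was 175 of 14232 without a floor and 143 of 11252 with the lower-quartile floor. It was 809 of 7549 at the looser threshold. The number higher was 0 under every setting. The median over the 7 members, -0.19, was -0.42 over the 3 with both values at the floor, -0.42 over the 5 above the lower quartile and -0.051 over 9 with probe sets of several genes averaged in, where FGF5 also moved to -0.051. Among the other lists, the heparan sulphate enzymes gained 1 gene past 1.5-fold (higher in SP) without a floor, HS3ST1, out of 18. The feedback inhibitors went from 2 of 6 to 3 of 12, the added gene being DUSP6. HS3ST1 and DUSP6 lay under the floor on both arrays. With no floor applied, 319 of the 14232 named genes passed 1.5-fold upwards. With the trend on signal level removed, the other receptor tyrosine kinases gained 1 (higher), as did the fibroblast and muscle markers. The gene gained was PDGFRB in both lists. Centring, quantile normalisation and trend removal shifted the median of above-floor genes by 0.01, 0.03 and 0.05. FGFRL1, KL, NDST4, CRKL, DDR2, ALK, EPGN, EPCAM, VIM, CDH2 and DES changed sign under at least 1 scaling or probe set choice and have no direction here. Signal under the floor on both arrays limits FGF1, FGFR2, FGFR4 and FGF5.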

Other observations

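Probe sets that carry another symbol beside an FGF family gene outside the member set had differences between -0.20 and 0.11. They were used only in the alternative that averages in such probe sets. That of IDUA and FGFRL1 had 9.08 in SP and 9.02 in NSP. That of CHRNB1 and FGF11 had 7.35 and 7.55, a difference of -0.20. That of FGF13, an intracellular homologous factor that binds sodium channels, and MIR504 had 6.62 and 6.64, and that of FGF14 and FGF14-IT1 had 4.75 and 4.63. The last 2 lay under the floor on both arrays.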
